A study of Mus musculus with 2 samples.

Results

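The cells described here are early-anagen melanocyte stem cells (McSCs) near mitosis: 278 of the 2785 early-anagen cells that met the quality limits, and of 15337 cell barcodes deposited in the series. They were chosen by their transcripts. Among barcodes with more than 10000 UMIs (unique molecular identifiers, each a counted transcript), less than 5% mitochondrial UMIs, at least 1 *Dct* UMI and fewer than 3 UMIs of *Krt10* and *Krt14* together, the 10% with the highest share of UMIs in *Cenpa*, *Ccnb2*, *Cdc20*, *Knstrn*, *Hmmr*, *Cdkn3* and *Cdc25c* were taken. They were compared with the 1392 cells, 50% of the same pool, in which that share was lowest. Because the cells were selected on measured values, all levels of these cells against the rest are descriptions, and none was tested.

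The study sorted GFP-labelled pigment cells from mouse back skin for droplet single-cell RNA sequencing, to ask how far McSCs of the hair germ enter differentiation when the follicle starts to grow. All mice were *Dct-rtTA; tetO-H2B-GFP*, in which a *Dct*-driven activator turns on a GFP-tagged histone in the melanocyte lineage, and had received doxycycline. The early-anagen library pooled the cells of 4 mice, depilated at 8 weeks of age and collected 4 days later with follicles in anagen II. The bulb library pooled the cells of 4 mice aged 5 weeks, from dissected bulbs of anagen VI follicles. There was 1 library per condition, and the individual mice cannot be told apart. The early-anagen library held 116800173 UMIs in 11010 barcodes and was made with version 3 of the kit, and the bulb library held 58161397 UMIs in 4327 barcodes and was made with version 2. The libraries shared 1 barcode sequence, which was not among the 278 cells.

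McSCs are the reserve of pigment cells in the hair follicle. They rest through telogen and divide at anagen onset, supplying the pigment-producing melanocytes of the hair bulb while renewing themselves. A dividing cell first copies its DNA in S phase with the MCM helicases and DNA polymerases, packages it with newly made histones, and then enters mitosis under CDK1 with cyclin B. At the exit from mitosis the anaphase-promoting complex and its activator CDC20 mark securin and cyclin B for destruction, and the cytokinesis machinery divides the cell. Many genes of mitosis share promoter elements, the CHR element (TTTGAA) bound by the DREAM and MMB complexes, and CCAAT boxes bound by NF-Y, whereas S phase genes often carry E2F sites such as TTTGGCGC.

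The promoters below show these elements at genes on which the comparison turns. *Top2a* (topoisomerase II, which untangles chromosomes), *Kif11* (the motor that pushes spindle poles apart), *Depdc1a* and the selection gene *Hmmr* were high in the near-mitosis cells, and *Mcm6* (a helicase subunit) is a replication gene that was not. Each run is the 100 bases just upstream of the RefSeq transcription start, 5′ to 3′ on the gene's strand (GRCm38.p6), and overlaps no annotated exon. Capitals mark the CHR element, CCAAT boxes and the E2F site TTTGGCGC on either strand.
Top2a: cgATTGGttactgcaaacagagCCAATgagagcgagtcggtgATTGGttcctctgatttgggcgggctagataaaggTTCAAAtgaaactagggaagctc
Kif11: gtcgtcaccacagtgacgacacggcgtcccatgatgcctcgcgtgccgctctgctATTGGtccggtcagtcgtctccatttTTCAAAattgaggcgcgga
Depdc1a: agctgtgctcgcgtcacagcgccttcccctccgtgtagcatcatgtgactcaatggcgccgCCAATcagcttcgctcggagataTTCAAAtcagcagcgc
Hmmr: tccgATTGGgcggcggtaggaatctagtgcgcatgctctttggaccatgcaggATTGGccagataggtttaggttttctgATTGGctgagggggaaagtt
Mcm6: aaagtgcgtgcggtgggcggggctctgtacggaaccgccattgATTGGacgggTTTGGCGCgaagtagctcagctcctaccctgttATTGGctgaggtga

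They lie at chr11:99024190-99024289 (minus strand), chr19:37376282-37376381 (plus), chr3:159495333-159495432 (plus), chr11:40733438-40733537 (minus) and chr1:128359706-128359805 (minus). TTTGAA began 23, 19 and 16 bases upstream of the start in *Top2a*, *Kif11* and *Depdc1a*. Each of these had at least 1 CCAAT box farther upstream. The *Hmmr* window held 3 CCAAT boxes and no TTTGAA, and the *Mcm6* window held 2 CCAAT boxes and 1 TTTGGCGC. In windows from 250 bases before to 50 bases after the start, TTTGAA on either strand was found for 20.2% of 27025 gene symbols and for 48 of 76 mitotic genes with a promoter entry (63.2%). Among the latter were 21 of 25 spindle and cytokinesis genes (84.0%), 8 of 10 condensation genes, 12 of 20 kinetochore genes, 4 of 11 kinases and cyclins (36.4%) and 3 of 10 anaphase and exit genes. It was found for 1 of 7 tubulin genes, 6 of 33 replication genes (18.2%) and 2 of 12 pigmentation genes (16.7%). CCAAT was more widely shared, at 41.1% of all symbols, 71.1% of the mitotic genes and 63.6% of the replication genes. TTTGGCGC was present for 0.585% of all symbols, 21.2% of the replication genes and 5.26% of the mitotic genes. The elements are matches of letters and do not show that a factor was bound.

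The 7 selection genes mark the last part of the cell cycle. *Cenpa* encodes the histone of centromeres, *Ccnb2* a B-type cyclin, *Cdc20* the activator of the anaphase-promoting complex, *Knstrn* and *Hmmr* spindle proteins, *Cdkn3* a phosphatase acting on CDKs and *Cdc25c* a phosphatase that activates CDK1. Before thinning, the selection genes together made a median of 1836 CPM (UMIs scaled to a total of 1000000) in a near-mitosis cell, and the 278 cells held between 15 and 267 selection UMIs each, with a median of 68. The cell just inside the limit had 71 such UMIs of 69925 (1015 CPM), and the cell just outside had 22 of 21751 (1011 CPM). The 10th cell inside stood at 1083 and the 10th outside at 970 CPM. The limit therefore cuts through a continuous range. At the other end, 1162 pool cells (41.7%) had no selection UMI, and no cell in the comparison group exceeded 40.3 CPM.

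To compare groups at one depth, 10000 UMIs were drawn from every cell, and the draws of a group were added up and scaled to CPM. *Cenpa* stood at 693 CPM near mitosis and 1.29 in the comparison group, *Ccnb2* at 391 and 0.503, *Cdc20* at 251 and 0.790, and *Hmmr* at 273 and 0.0718. The last of these values was 1 UMI. At this depth 277 of 278 near-mitosis cells had a *Cenpa* UMI (99.6%), against 18 of 1392 (1.29%). At least 5 of the 7 selection genes were seen in 88.1% of near-mitosis cells, and all 7 in 21.2%. These are the values that chose the cells.

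The near-mitosis cells were melanocytic by their markers. All 8 melanocyte markers were present, with a summed level of 23317 CPM against 27688 in the comparison group, led by *Dct* (7094 and 9234 CPM), which the selection also required at 1 UMI. The 12 keratinocyte markers summed to 73.4 CPM near mitosis and 64.3 CPM in the comparison group, led by *Lgals7* (26.3 and 27.2 CPM), and *Trp63* was at 0 in both. Endothelial and Merkel cell markers were at 0 near mitosis. The 6 fibroblast markers summed to 1.08 CPM, the 6 immune markers to 12.6 CPM with *Ptprc* at 0, the 5 mural or muscle markers to 0.360 CPM and the 4 red cell markers to 1.80 CPM.

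Near-mitosis cells held more UMIs, with a median of 36739 (10767 to 83314), against 21882 (10001 to 82978) in the comparison group, and 3067 against 2939 genes at equal depth. The median mitochondrial share was 2.67% against 3.20%. Ribosomal protein genes made 218765 CPM near mitosis and 255740 CPM in the comparison group. CPM measures a share of the cell's UMIs, so a lower CPM does not say that a cell held fewer copies. The part of UMIs per cell in the results was not tested.

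Across the transcriptome, 7458 genes had at least 10 CPM over the pool. Of these, 286 were at least 2-fold higher near mitosis (3.83%) and 173 at least 2-fold lower (2.32%), with a median log2 ratio of 0.00. Each ratio carries an exact 95% Poisson interval, which covers counting error only and not the spread between mice. Genes of mitosis listed by role, without the 7 selection genes, numbered 94, of which 72 reached 10 CPM over the pool. Many of them, such as *Plk1*, *Cenpf* and *Ube2c*, were below 10 CPM in the comparison group. They reached the limit only because they were high in these and other cells, so the counts and the median ratio are descriptive. All 72 were higher near mitosis and 68 at least 2-fold, with a median log2 ratio of 5.18 and a summed level of 22634 CPM against 2888 CPM. The other 22 held 1678 UMIs near mitosis and 485 in the comparison group, which had 5 times as many cells. The list ratios plot shows the spread of each list.

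**Figure D1:**
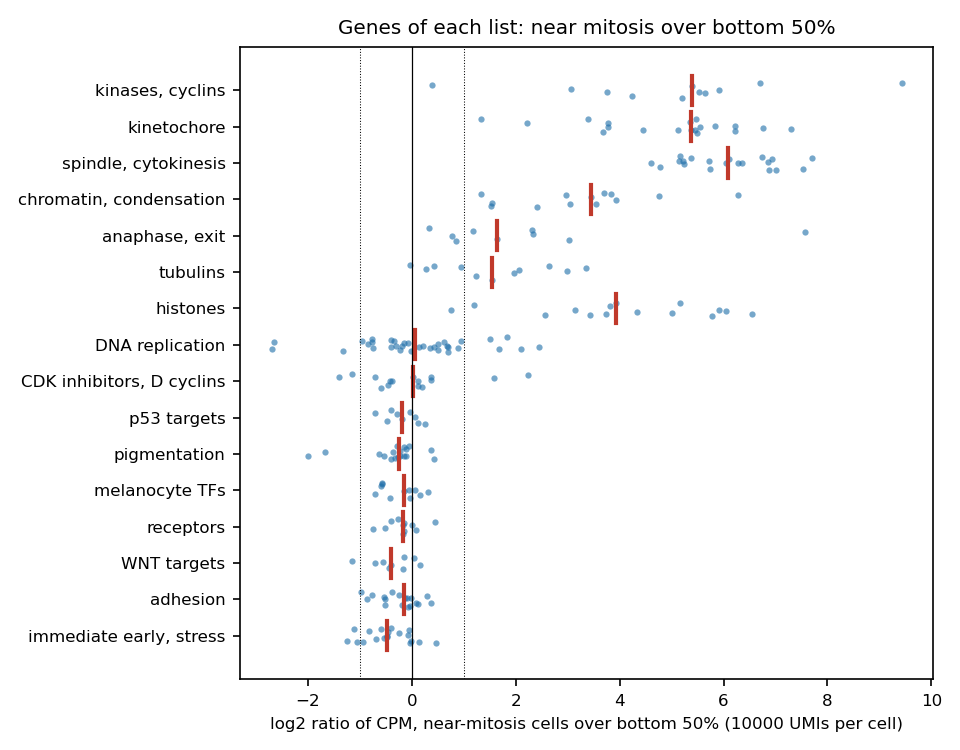
Each point is 1 gene with at least 10 CPM over the pool. The horizontal axis is the log2 ratio of its CPM in the 278 near-mitosis cells over the 1392 comparison cells, red bars are list medians, and dotted lines mark 2-fold. Lists of mitosis, tubulins and histones have medians to the right of 0 (1.54 to 6.08), whereas replication genes spread on both sides of it.

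Among the kinases and cyclins that drive entry into mitosis, 10 of the 11 genes that reached 10 CPM were at least 2-fold higher. *Plk1* (polo-like kinase, needed for spindle poles and cytokinesis) had 98.9 CPM near mitosis and 0.144 CPM, or 2 UMIs, in the comparison group, a log2 ratio of 9.43 (7.56 to 12.5). *Ccnb1* (cyclin B1) had 215 and 2.08 CPM, *Cdk1* 280 and 14.8 CPM, and *Aurka* and *Aurkb* (Aurora kinases of the poles and of the chromosomes) 79.5 and 1.58, and 100 and 2.16 CPM. *Wee1*, the kinase that holds CDK1 inactive, was nearest to even at 29.9 and 22.8 CPM (log2 ratio 0.39, 0.02 to 0.74). *Plk1*, *Ccnb1*, *Aurka* and *Aurkb* were below 10 CPM in the comparison group and reached the limit over the pool only through other cells. Their ratios are therefore not ranked against that of *Wee1*.

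All 19 measured genes of the centromere, the kinetochore and the spindle checkpoint were at least 2-fold higher. *Cenpf*, a kinetochore protein that accumulates late in the cycle, was at 455 against 2.87 CPM (log2 ratio 7.31, 6.85 to 7.80). *Birc5* (survivin, of the chromosomal passenger complex) was at 653 and 8.76 CPM, and *Bub1*, a checkpoint kinase, at 104 and 2.23 CPM. *Bub3* had the smallest ratio of the list (232 and 92.7 CPM, log2 ratio 1.33).

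The spindle motors and cytokinesis genes had a median log2 ratio of 6.08, and all 20 measured were at least 2-fold higher. Of those named here, all but *Prc1* were below 10 CPM in the comparison group. They reached the limit over the pool only through other cells, so the median is not ranked against those of other lists. *Depdc1a* was at 104 and 0.503 CPM, *Kif11* at 106 and 0.575 CPM, *Nusap1* (which bundles spindle microtubules) at 156 and 1.22 CPM, and *Kif20a*, a motor of the central spindle, at 70.5 and 0.575 CPM. *Prc1*, which crosslinks the central spindle, was at 443 and 11.7 CPM. *Racgap1* and *Anln*, which organise the cleavage furrow, were at 229 and 2.80, and 228 and 3.30 CPM.

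Genes of chromosome condensation and chromatin made the largest contribution by sum, 10969 against 1883 CPM, and all 13 were at least 2-fold higher. Among them the chromatin proteins *H2afz* (4404 and 828 CPM), *Hmgb1* (2100 and 721 CPM) and *Hmgb2* (2025 and 132 CPM), held most of that sum. *Top2a* was at 621 and 23.1 CPM, *Mki67* (the coat of mitotic chromosomes) at 493 and 6.32 CPM, and *Smc2* and *Smc4*, the condensin core, at 420 and 50.9, and 476 and 60.9 CPM.

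In the list of anaphase and mitotic exit the genes differed widely. *Ube2c*, the ubiquitin-conjugating enzyme of the anaphase-promoting complex, was at 873 and 4.60 CPM (log2 ratio 7.57, 7.21 to 7.95). *Ube2s*, which extends the ubiquitin chains, was at 1207 and 243 CPM, and *Pttg1* (securin) at 166 and 53.4 CPM. Subunits of the complex itself had smaller ratios. *Cdc27* was at 57.6 and 25.4 CPM (log2 ratio 1.18, 0.90 to 1.45), *Anapc5* at 191 and 105 CPM, *Anapc11* at 191 and 111 CPM and *Cdc16* at 37.1 and 29.5 CPM. Tubulin genes and the microtubule regulator *Stmn1* summed to 4908 and 1378 CPM, and 7 of 11 were at least 2-fold higher. *Tubb4b* (513 and 82.3 CPM) and *Tuba1c* (68.7 and 8.69 CPM) were among them, while *Tubb2b* was even (104 and 106 CPM).

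The genes of origin licensing and DNA replication gave no common direction. Of 34 measured, 17 had a ratio above even and 17 below, and the median log2 ratio was 0.06. That median was 2.32 with members ranked by the other mitotic genes and 0.72 with the top 20% as members. With all other pool cells as the reference it was -0.45. Of the 34 genes, 5 were at least 2-fold higher and 3 at least 2-fold lower in the main comparison. The higher ones included *Tyms* (166 and 38.9 CPM) and *Rrm1* (131 and 36.4 CPM), which make DNA precursors. The 3 lower ones were *Ccne1* (cyclin E1, which starts S phase; 1.44 and 9.05 CPM), *Ung* (a DNA repair glycosylase; 2.52 and 16.3 CPM) and *E2f1* (a transcription factor of S phase genes; 7.91 and 19.8 CPM). The helicase subunits *Mcm3* (31.7 and 61.1 CPM) and *Mcm6* (27.3 and 46.6 CPM) were lower by less than 2-fold. Replication-dependent histone genes were high: 14 of the 15 measured of 67 were at least 2-fold higher, and the family summed to 2068 and 113 CPM. The sum was uneven between cells. At 10000 UMIs a near-mitosis cell held a median of 4 histone UMIs, with a highest value of 200. The median log2 ratio of the 15 genes was 3.93, and 1.36 with all other pool cells as the reference. Histone transcripts mostly lack a poly(A) tail and are near-identical in sequence. Counts of single histone genes in a poly(A)-primed library are therefore uncertain.

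Genes lower near mitosis included regulators of G1. *Ccnd2* (cyclin D2) was at 65.1 CPM near mitosis and 171 CPM in the comparison group, a log2 ratio of -1.39 (-1.62 to -1.17). *Ccnd1* (cyclin D1) was at 23.4 and 51.7 CPM (-1.15, -1.53 to -0.78), and a *Ccnd1* UMI was seen in 18.0% of near-mitosis cells (13.7 to 23.0%) against 30.7% (28.3 to 33.2%). *Ccnd3* was even (87.8 and 86.4 CPM). The 18 genes of CDK inhibitors, D cyclins and antiproliferative factors did not move together: of 15 measured, 2 were at least 2-fold higher and 2 lower. The INK4 inhibitors *Cdkn2c* (99.6 and 21.1 CPM) and *Cdkn2d* (153 and 50.9 CPM) were the higher ones and the cyclins *Ccnd1* and *Ccnd2* the lower ones. *Cdkn1a* (p21) was at 28.8 and 47.0 CPM, and *Cdkn1b* (p27) at 131 and 101 CPM. None of 9 measured p53 targets reached 2-fold in either direction (median log2 ratio -0.19).

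The most abundant of the lower genes was *Malat1*, a nuclear long noncoding RNA (ENSMUSG00000092341, chr19:5795690-5802672, minus strand), at 6672 CPM near mitosis and 15906 CPM in the comparison group (log2 ratio -1.25, -1.28 to -1.23). By the rule on ratios the others named for the lowest ratios included *Gbp2*, *Snhg4*, *Mettl1*, *Ccnd2*, *Cst6*, *Atf3*, *Fkbp11*, *Tnfrsf12a*, *Cd59a*, *Nfat5*, *Zfas1*, *Ccnd1* and *Mxd4*, with log2 ratios from -1.69 for *Gbp2* (23.0 and 74.2 CPM), an interferon-induced GTPase, to -1.14 for *Mxd4* (70.5 and 155 CPM), a MAX partner of resting cells. *Snhg4* and *Zfas1* are hosts of small nucleolar RNAs. *Atf3*, a stress-induced transcription factor, was at 144 and 343 CPM. In its list of 19 immediate early and stress genes, 17 had a ratio below even, 3 of them at least 2-fold lower (*Atf3*, *Fosb* and *Hspa1a*), with a sum of 6367 against 8134 CPM. *Hsp90aa1* stood apart at 1217 and 884 CPM. Of all 7457 genes measured 3685 were below even, and 2.32% were at least 2-fold lower. The list was also lower in the replication-high (6994 CPM) and histone-high cells (6780 CPM) described below. In each of these groups 16 of the 19 genes were below even over the comparison group.

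**Figure D2:**
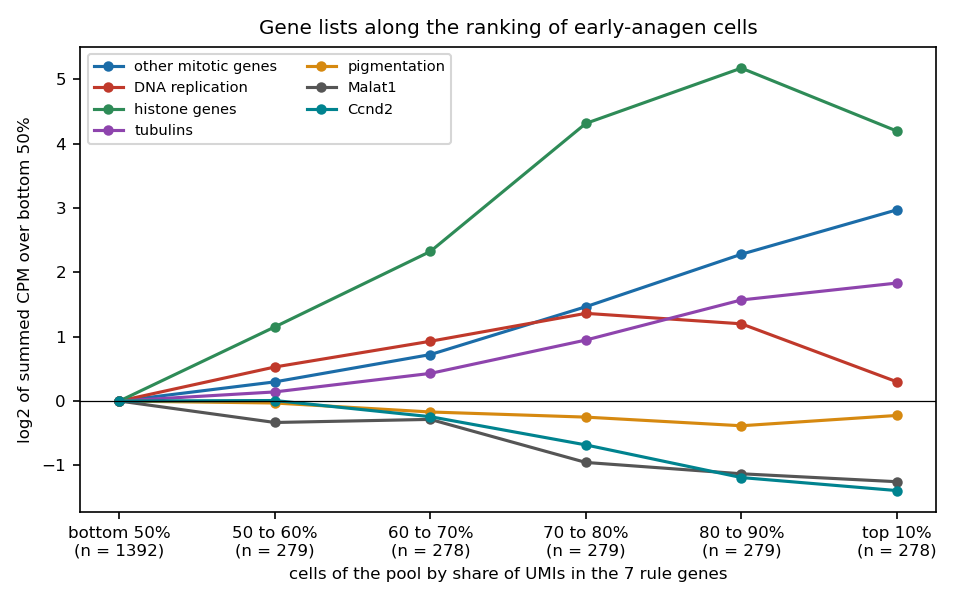
The pool was divided by the share of selection-gene UMIs into the bottom 50% and 5 steps of about 10% each (horizontal axis, number of cells below). Lines give the log2 of each list's or gene's summed CPM over its value in the bottom 50%. Replication genes and histones were highest in the 70 to 80% and 80 to 90% steps and lower again in the top 10%, while mitotic genes and tubulins were highest in the top 10%.

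The steps below the near-mitosis cells gave an order of the lists, shown in the plot along the ranking. Replication genes summed to 1069 CPM in the bottom 50%, 2749 CPM in the cells ranked 70 to 80%, 2457 CPM at 80 to 90% and 1316 CPM in the top 10%. Histone genes were highest one step nearer the top, with 2245, 4072 and 2068 CPM in the last 3 steps. Other mitotic genes stood at 7972, 14029 and 22634 CPM in the same steps. *Ccne1* was at 46.6 CPM in the 70 to 80% step and at 1.44 CPM in the top 10%. *Malat1* was at 13051 CPM at 60 to 70%, 8210 CPM at 70 to 80% and 6672 CPM at the top. Median UMIs per cell also differed between steps, from 21882 in the bottom 50% to 28938 at 70 to 80% and 36739 at the top, before thinning. Cells were ranked on the selection genes, and the ranks are not a time course.

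To set the near-mitosis cells beside other cycling cells, 2 groups were taken from the rest of the pool: 277 replication-high cells, in the top 10% by share of replication genes, and 225 histone-high cells, in the top 10% by share of histone genes. They shared 130 cells. Both were similar in depth to the near-mitosis cells, with medians of 38687 and 42552 UMIs. Of the 278 near-mitosis cells, 1 was in the top 10% by replication genes (0.360%) and 53 by histone genes (19.1%), whereas 172 were in the top 10% by the other mitotic genes (61.9%).

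Against the replication-high cells, 237 of 7458 genes were at least 2-fold higher near mitosis (3.18%) and 286 at least 2-fold lower (3.83%). Against the histone-high cells the numbers were 244 (3.27%) and 229 (3.07%). Of 34 replication genes, which chose the replication-high cells, 32 were at least 2-fold lower than in that group, and 30 at least 2-fold lower than in the histone-high group. *Ccne1* was at 87.0 CPM in the replication-high cells, 73.8 CPM in the histone-high cells and 1.44 CPM near mitosis. Within the mitotic lists the genes parted. *Ube2c* was at 873 CPM near mitosis, 57.8 CPM in the replication-high and 218 CPM in the histone-high cells. *Plk1* was at 98.9, 13.7 and 38.7 CPM, *Ccnb1* at 215, 35.0 and 66.2 CPM, and *Aspm*, a spindle pole protein, at 91.4, 14.4 and 23.1 CPM in the same order. Most mitotic genes differed less. Of the 72 measured, 35 were at least 2-fold higher near mitosis than in the replication-high cells and 12 than in the histone-high cells. Against the latter 53 were above even and 19 below, with a median log2 ratio of 0.31. High mitotic genes were therefore largely shared with the histone-high cells, in which they summed to 18108 CPM, against 22634 CPM near mitosis and 2888 CPM in the comparison group. High tubulins were shared as well. They summed to 4908 CPM near mitosis, 4277 CPM in the replication-high and 5524 CPM in the histone-high cells. Against the latter, 5 of 11 tubulin genes were above even and 6 below.

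*Cdk1* and *Top2a* did not separate the groups in that way. *Cdk1* was at 280 CPM near mitosis, 191 CPM in the replication-high and 273 CPM in the histone-high cells (near mitosis over histone-high, log2 ratio 0.04, -0.12 to 0.19). *Top2a* was at 621, 489 and 826 CPM. *Fbxo5* (EMI1, which blocks the anaphase-promoting complex before mitosis) went the other way, at 19.8 CPM near mitosis, 87.4 CPM and 125 CPM, as did the condensin subunit *Ncapg2* (26.3, 97.1 and 121 CPM). *Fzr1* (CDH1, the activator of the complex at the exit from mitosis) was at 59.0, 14.8 and 24.9 CPM. *Hist1h2ap* had 755 CPM near mitosis, 1739 CPM and 3325 CPM. *Hist1h2bc*, alone among the 15 measured histone genes in being above even against the histone-high cells, had 88.5, 22.7 and 39.6 CPM. In the same order *Ccnd2* was at 65.1, 106 and 77.3 CPM (near mitosis over histone-high, log2 ratio -0.25, -0.56 to 0.06). *Ccnd1* was at 23.4, 99.3 and 70.7 CPM.

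The 278 cells differed among themselves. They were split into tertiles by the share of the 94 other mitotic genes, a split made after the values had been seen, giving 92, 94 and 92 cells with medians of 28000, 41047 and 43346 UMIs. Levels of the mitotic lists therefore differ between tertiles by choice and are given as a description. The selection genes, on whose sum every cell had passed the same limit, together stood at 1671 CPM in the low and 2351 CPM in the high tertile. *Cenpa* was at 629 and 750 CPM, *Ccnb2* at 384 and 401 CPM, *Knstrn* at 182 and 228 CPM and *Cdkn3* at 138 and 180 CPM. *Cdc20* (132 and 339 CPM), *Hmmr* (167 and 375 CPM) and *Cdc25c* (39.1 and 77.2 CPM) differed more.

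**Figure D3:**
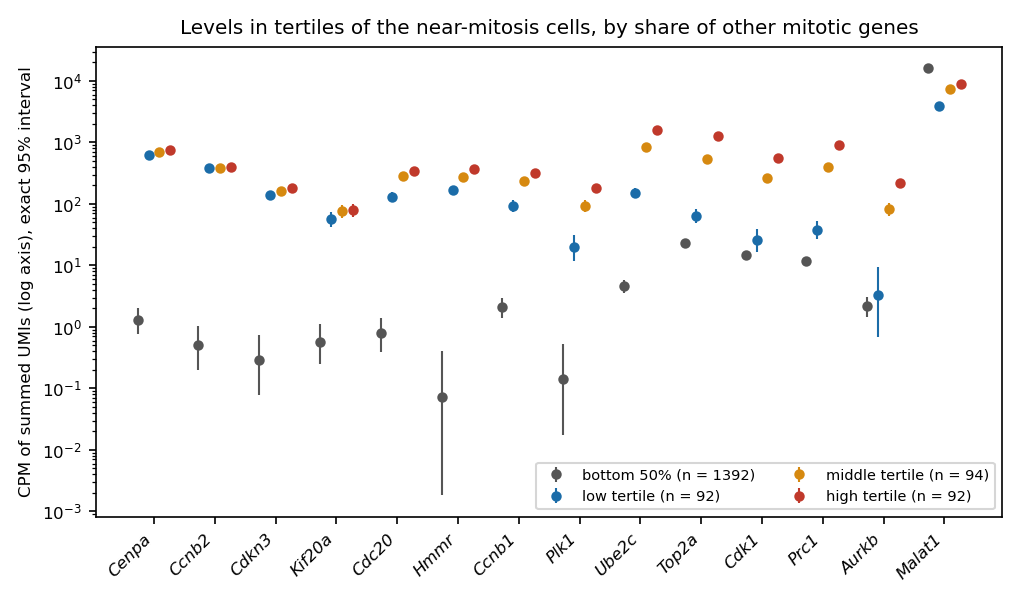
CPM of the summed UMIs (log axis) with exact 95% Poisson intervals, which cover counting error only, in the comparison cells and in the 3 tertiles of the near-mitosis cells by share of other mitotic genes. *Cenpa*, *Ccnb2*, *Cdkn3* and *Kif20a* differed by less than 2-fold across tertiles, whereas *Cdk1*, *Top2a*, *Prc1* and *Aurkb* of the low tertile lay closer to the comparison cells than to the high tertile.

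The low tertile as a whole stood above the comparison group, with a sum of other mitotic genes of 13070 CPM against 2888 CPM. The median log2 ratio was 3.30. The genes' own lower and upper bounds had medians of 2.60 and 4.02, which are not an interval of the median. Of the 72 measured, 68 were above even and 4 below, *Bub3* among the latter (67.4 and 92.7 CPM). Of all 7457 genes measured, 3803 were above even and 3653 below in this comparison. *Cdk1* was at 26.1 CPM in the low and 553 CPM in the high tertile (log2 ratio -4.41, -5.06 to -3.82), with 14.8 CPM in the comparison group. A *Cdk1* UMI was seen in 14 of 92 low-tertile cells (15.2%, 8.58 to 24.2%) and in all 92 high-tertile cells, against 11.1% of comparison cells. *Top2a* was at 64.1 CPM in the low and 1254 CPM in the high tertile, with 23.1 CPM in the comparison group. In the same order *Aurkb* was at 3.26, 215 and 2.16 CPM, *Prc1* at 38.0, 897 and 11.7 CPM, *Nusap1* at 14.1, 345 and 1.22 CPM and *Ube2c* at 151, 1615 and 4.60 CPM. *Kif20a* (56.5 and 78.3 CPM), *Cenpe*, a motor of the kinetochore (154 and 328 CPM), and *Hmgb1* (1998 and 2157 CPM) differed less. Of 7458 genes, 303 were at least 2-fold higher in the low than in the high tertile (4.06%) and 538 at least 2-fold lower (7.21%). These groups are small, and many of the genes rested on few UMIs.

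Lists that the split did not use differed between tertiles as well. Histone genes summed to 321 CPM in the low and 4115 CPM in the high tertile, and 12 of 15 measured were at least 2-fold lower. Per cell, the low tertile held 0 to 10 histone UMIs at 10000 UMIs, with a median of 3. The high tertile held 0 to 200, with a median of 22.5. Tubulins summed to 2549 and 7168 CPM, and replication genes to 824 and 1837 CPM. *Malat1* was at 3849 CPM in the low, 7256 CPM in the middle and 8897 CPM in the high tertile, so its lowest level among the groups compared lay in the low tertile.

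From cell to cell, at 10000 UMIs, the 278 cells held 76 to 429 UMIs of other mitotic genes (median 230.5), 10 to 106 of tubulins (median 48), 0 to 56 of replication genes (median 11), 50 to 407 of pigmentation genes (median 179) and 0 to 325 of *Malat1* (median 53). Histone UMIs had a median of 4 and were absent from 12 cells, 8 of them in the low tertile. The tertiles overlapped widely in pigmentation UMIs, with medians of 197.5, 185 and 163, and less in tubulin UMIs, with medians of 24, 49 and 70.

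**Figure D4:**
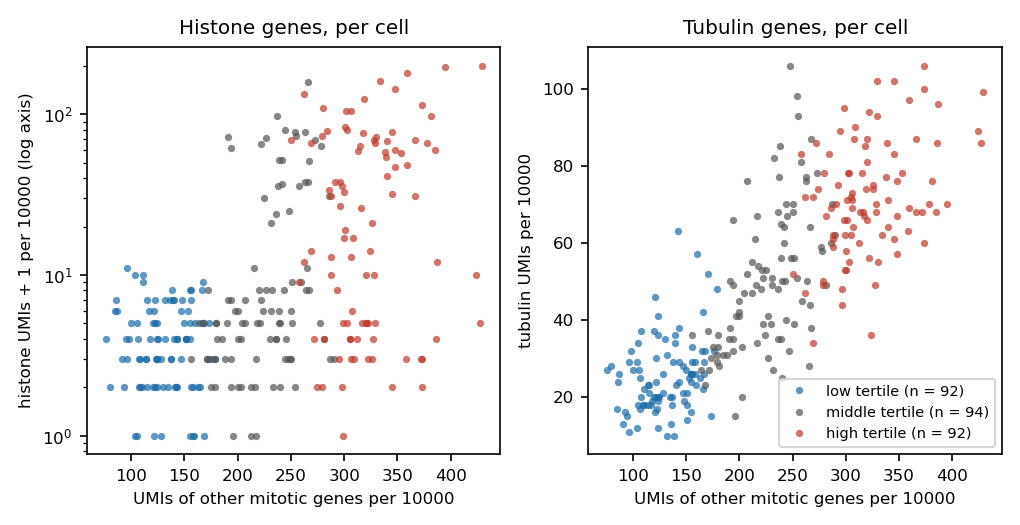
Each point is 1 of the 278 near-mitosis cells, thinned to 10000 UMIs and coloured by tertile; the horizontal axis is its UMIs of other mitotic genes and the vertical axis its histone UMIs plus 1 (left, log axis) or tubulin UMIs (right). Low-tertile cells had at most 10 histone UMIs, whereas the middle and high tertiles spread up to 157 and 200.

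The split was repeated in other ways. With the cells split by tubulin genes, *Cdk1* was at 18.5 and 533 CPM, *Top2a* at 46.7 and 1143 CPM and *Cenpa* at 691 and 674 CPM in the low and high tertile. With the split by mitotic genes made on a random 50% of the UMIs and levels read from the others, *Cdk1* was at 32.6 and 567 CPM. With a split by UMIs per cell alone (medians of 23363 and 52531), *Cdk1* was at 110 and 437 CPM and *Cenpa* at 783 and 614 CPM, a smaller difference for *Cdk1*. Histone genes then summed to 1513 and 2708 CPM and tubulins to 3784 and 5846 CPM, also smaller differences than with the split by mitotic genes.

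Pigmentation genes, which make and fill the melanosome, differed little in near-mitosis cells. They summed to 18744 CPM, against 21894 CPM in the comparison group, 15542 CPM in the replication-high and 14060 CPM in the histone-high cells. Of 18 genes, 16 were below even against the comparison group, as were 3685 of all 7457 genes measured. The median log2 ratio of the 18 was -0.24, and 2 were at least 2-fold lower, against 2.32% of all genes. *Tyrp1* (an enzyme of eumelanin synthesis) was at 5105 and 5957 CPM, *Pmel* (the melanosome fibril) at 3894 and 4844 CPM, *Tyr* (tyrosinase) at 485 and 639 CPM and *Mlana* at 5353 and 5803 CPM. *Rab27a* (126 and 93.3 CPM) and *Rab32* (50.4 and 38.9 CPM), GTPases of melanosome transport and formation, were the 2 above even. Against the replication-high and histone-high groups 17 of 18 genes were above even in either comparison, as were 4164 and 4268 of all 7457 genes measured. *Rab27a* was at 51.3 and 44.4 CPM there.

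**Figure D5:**
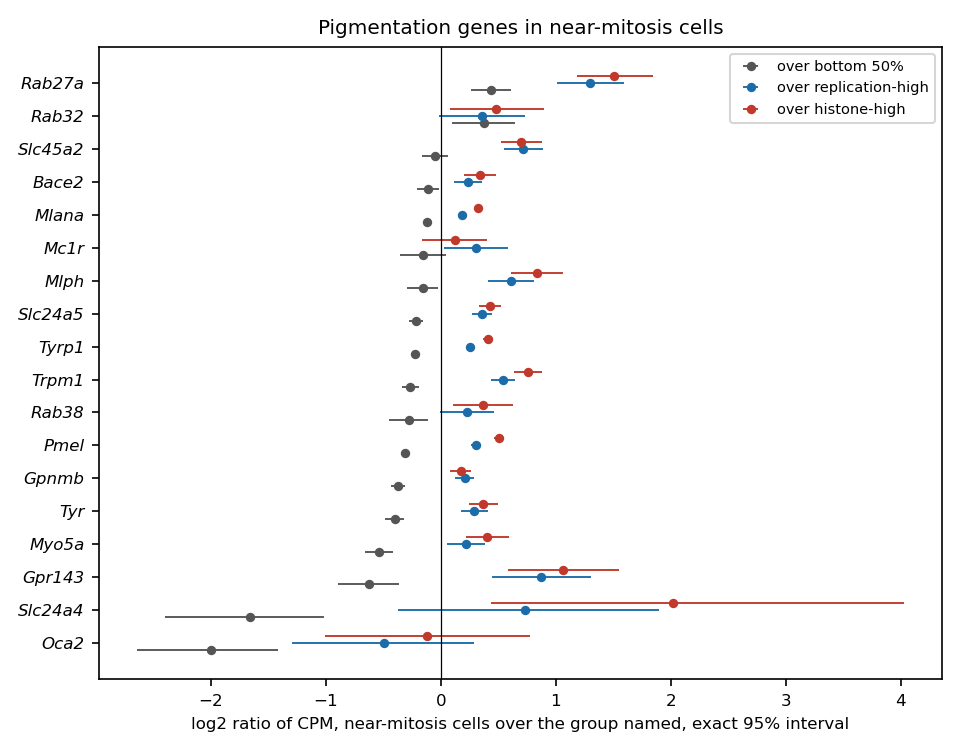
Log2 ratio of CPM in the near-mitosis cells over the comparison cells (grey), the replication-high cells (blue) and the histone-high cells (red), with exact 95% intervals, which cover counting error only, for 18 pigmentation genes. Most grey points lie left of 0 and most blue and red points right of it; *Oca2* lies left of 0 in all 3 comparisons, with intervals that reach 0 in the latter 2.

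The 2 genes at least 2-fold lower were *Oca2* and *Slc24a4*. *Oca2*, a melanosomal transport gene that the study used to mark late pigmentation (ENSMUSG00000030450, chr7:56239760-56536518, plus strand), was at 8.99 CPM near mitosis and 35.8 CPM in the comparison group (log2 ratio -2.00, -2.64 to -1.42). *Slc24a4*, an ion exchanger, was at 7.19 and 22.8 CPM. At 10000 UMIs an *Oca2* UMI was seen in 19 of 278 near-mitosis cells (6.83%, 4.16 to 10.5%) and 202 of 1392 comparison cells (14.5%, 12.7 to 16.5%). The shares were 5.78% in the replication-high (3.34 to 9.21%) and 4.89% in the histone-high cells (2.47 to 8.58%). With all UMIs the shares were 14.4% near mitosis and 19.9% in the comparison group, whose cells were shallower (medians of 36739 and 21882 UMIs). Again at 10000 UMIs, the share in keratin-rich barcodes without *Dct*, which should lack the gene, was 0 of 24 (upper limit 14.2%). Their median before thinning was 31522 UMIs. In the bulb library, also at 10000 UMIs, 95.2% of cells had an *Oca2* UMI.

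Few genes of the whole table reached 2-fold against the comparison group (3.83% higher, 2.32% lower), and short lists with none, such as the 11 melanocyte transcription factors, do not stand apart from it. Of these factors 3 were above even and 8 below, with a median log2 ratio of -0.15. Beside this and the other counts of this paragraph, 3685 of all 7457 genes measured were below even. *Mitf* (the master regulator of pigment cells) was at 557 CPM near mitosis and 449 CPM in the comparison group (log2 ratio 0.31, 0.23 to 0.39), and at 359 CPM in the replication-high and 339 CPM in the histone-high cells. *Sox10* was at 142 and 136 CPM, with 74.0 and 76.4 CPM in the replication-high and histone-high cells, and *Pax3* at 394 and 403 CPM. *Kit*, the receptor for stem cell factor, was at 531 and 498 CPM, *Ednrb*, an endothelin receptor, at 642 and 767 CPM, and *Met* at 84.5 and 120 CPM. Within the near-mitosis cells *Mitf* was at 454 CPM in the low and 687 CPM in the high tertile, and *Kit* at 387 and 643 CPM. With the split by UMIs per cell *Mitf* was at 586 and 516 CPM, and *Kit* at 491 and 548 CPM. Of the 11 receptors measured 3 were above even and 8 below (median log2 ratio -0.16), none by 2-fold. Of 9 measured WNT targets 7 were below even, *Ccnd1* alone by at least 2-fold, and *Axin2*, a feedback gene of the pathway, had a log2 ratio of 0.16 (-0.12 to 0.42). Of 6 genes that the study named for stem cells, a choice made in part on these libraries, 4 were below even and 2 above, with a median log2 ratio of -0.49. Below were the heat shock gene *Hspa1a* (228 and 494 CPM, the only one by 2-fold), *Sept4* (68.7 and 121 CPM), *Col12a1* (185 and 265 CPM) and *Txnip* (156 and 216 CPM). *Cdh1* (126 and 103 CPM) and *Cd9* (752 and 694 CPM) were above. Of 18 measured adhesion genes 4 were above even and 14 below (median log2 ratio -0.16), none by 2-fold, and the tetraspanin *Cd63* was at 1717 and 2479 CPM. Over the comparison group, 15 of the 18 were also below even in the replication-high cells and 15 in the histone-high cells. Near mitosis over these 2 groups, 12 and 10 of the 18 were above even.

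In the bulb library, whose kit and depth differ, few cells met the same limit. Of 3287 cells under the same limits, 35 (1.06%, 0.743 to 1.48%) reached the share that bounds the early-anagen near-mitosis cells, and 348 (10.6%) had any selection UMI. Kit, depth, age and condition cannot be told apart in this contrast. In the 35 cells *Cenpa* was at 703 CPM and *Plk1* at 100 CPM, and the other mitotic genes summed to 16386 CPM, against 2029 CPM in the bottom 50% of bulb cells. Their pigmentation genes summed to 53100 CPM, against 70452 CPM. *Malat1* was at 5009 and 16698 CPM, and *Ccnd2* at 343 and 603 CPM in the same groups. Replication genes summed to 1906 CPM in the 35 bulb cells and 408 CPM in the bottom 50% of bulb cells, whereas the early-anagen sums were 1316 and 1069 CPM. Histone genes summed to 457 and 140 CPM in the bulb groups, and tubulins to 5394 and 2534 CPM.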

How the data were processed

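The values are UMI counts, not normalized, which the authors deposited as 1 matrix per library, made with Cell Ranger 6.0.1 on mm10 (GRCm38). Members and gene lists were chosen with earlier results of these data known. Cells met the limits given above, and no doublet caller was run. Each cell was thinned once at random to 10000 UMIs (seed 7), UMIs were summed per group and scaled to CPM, and genes with at least 10 CPM over the pool were kept. Telogen cells were not analysed here. Some genes and 1 marker list are not reported here. With 1 library per condition no test was run and cells were not treated as replicates. Intervals (95%, exact Poisson ratio or Clopper-Pearson) cover counting error only. The size rule for a called gene was a 2-fold ratio. Genes named were those of 26 lists, plus the 15 highest and the 15 lowest ratios of genes reaching 50 CPM in the higher group, without mitochondrial, ribosomal protein and selection genes and clone symbols. By that rule the higher ones were *Plk1*, *Depdc1a*, *Ube2c*, *Kif11*, *Cenpf*, *Nusap1*, *Kif20a*, *Kif23*, *Aspm*, *Ckap2l*, *Ccnb1*, *Cdca3*, *Hist1h2ab*, *Racgap1* and *Kif4*. Promoters came from RefSeq (GRCm38.p6) and exons and gene positions from GENCODE (vM21). Ratios and intervals were tested on simulated Poisson sums, which leave out the spread between cells and between mice. Software was Python 3.11.15, numpy 2.4.6, scipy 1.17.1 and pandas 2.3.3, and edgeR 4.0.16 in R 4.3.3 for 1 alternative scaling.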

Additional observations from a re-analysis of the deposited data

Results flagged for a closer look

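Cells at the near-mitosis level also occurred among barcodes that the limits set aside. Of 653 deep barcodes with *Dct* and at least 3 UMIs of *Krt10* and *Krt14*, 39 reached the share of selection genes that bounds the near-mitosis cells (5.97%, 95% Clopper-Pearson interval 4.28 to 8.07%, median 13954 UMIs). Of 305 deep barcodes with a mitochondrial share of at least 5%, 26 did (8.52%, 5.64 to 12.2%, median 17677 UMIs). Of 26 deep barcodes without a *Dct* UMI, 0 did (upper limit 13.2%). Of 7241 barcodes with 10000 UMIs or fewer, 655 did (9.05%, 8.39 to 9.73%), at a median of 1825 UMIs, where a few selection UMIs suffice to pass the limit.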

How the results depend on the processing

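Each of the 6 summaries (4 list medians and 2 counts) was recomputed under 16 alternatives, and 70 of the 96 values were classed as unchanged. For a list median this meant lying between the medians of the genes' own lower and upper bounds, which are not an interval of the median. For a count it meant lying within 1.5 times the main count. With members ranked by the other mitotic genes, the median log2 ratios were 6.74 for those genes, 2.32 for replication, 5.38 for histone and -0.56 for pigmentation genes, with 463 genes at least 2-fold higher. With all other pool cells as the reference they were 2.94, -0.45, 1.36 and -0.12. With more than 20000 UMIs they were 4.57, -0.42, 3.39 and -0.41. With the top 20% as members, replication was 0.72, histone 4.60 and pigmentation -0.36, with 85 genes at least 2-fold lower. Ranking after thinning gave 3.36 for histone genes, and leaving out cells with any other keratinocyte marker gave -0.13 for pigmentation. With at least 50 CPM, mitotic genes were at 3.60 and histone genes at 5.92, with 79 genes higher and 21 lower, and with no minimum 1474 and 873. With all UMIs 93 genes were lower. The replication median therefore had no stable direction. Histone medians stayed above 0 and pigmentation medians below 0 in the 16 alternatives, and mitotic medians above 0 in the 15 that did not choose cells by those genes. The split by UMIs per cell gave -0.76 for mitotic genes between tertiles, against -1.92. The causes were not tested. No paired analysis was possible because each condition had 1 library. Groups of 92 cells limit what can be said of rare transcripts. Without the 5% of the pool with the most UMIs, which stands in for a doublet caller, the mitotic median was 4.76.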

Other observations

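Genes outside the lists differed between tertiles of the near-mitosis cells. These were picked after their values had been seen and carry no test. The chaperone gene *Hspa5* (BiP) was at 1634 CPM in the low and 649 CPM in the high tertile, *Manf* at 587 and 310 CPM and *Pdia6* at 620 and 345 CPM. *Hspa5* was at 1560 and 599 CPM with the split by tubulin genes, and at 1299 and 840 CPM with the split by UMIs per cell. The nuclear import factor *Kpna2* had a log2 ratio of -4.46 (-5.48 to -3.59), and the calmodulin gene *Calm2* was at 783 and 2212 CPM. *Arl6ip1*, which shapes the endoplasmic reticulum, was at 1156 CPM near mitosis, 254 CPM in the comparison group and 244 CPM in the replication-high cells.

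A few genes outside the lists, also picked after their values had been seen, differed between the near-mitosis cells and the comparison group. *Lmnb1* (lamin B1) was at 245 CPM near mitosis and 46.3 CPM in the comparison group, *Tmpo*, a lamin-binding protein, at 311 and 84.4 CPM, *Lbr* (the lamin B receptor) at 120 and 29.9 CPM, and the cohesin subunit *Rad21* at 263 and 66.1 CPM.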
